A study of Homo sapiens with 6 samples.

Results

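The genes described here encode proteins of the extracellular matrix: the fibrillar collagen chains COL1A1, COL1A2, COL3A1 and COL5A2, the basement membrane collagen chains COL4A1 and COL4A2, the adhesive glycoprotein fibronectin (FN1) and the collagen-binding glycoprotein SPARC. They were represented by 6 windows of the hg19 genome, 2 of which hold a pair of neighbouring genes, with a summed length of 1.53 Mb. Every H3K27ac peak overlapping a window by at least 1 bp was counted, which gave 102 of the 56420 peaks in the M2 list and 26 of the 31444 in the THP-1 list. H3K27ac is an acetylated lysine in the tail of histone H3, a mark of active promoters and enhancers, and a peak is a stretch where fragments pulled down by the antibody exceeded the local background. THP-1 is a human monocytic leukaemia line. The other cells carry the label M2, a name for macrophages in the alternatively activated state, and the sources used here do not give their cells of origin or the agents applied. Both were grown in RPMI medium with fetal bovine serum and antibiotics. The study made 6 libraries, for YY1, H3K27ac and input in each cell type. The peak lists of the 2 H3K27ac libraries, 1 per cell type, were used. Libraries of YY1 and input were not analysed here. Since each cell type is 1 library, differences were not checked against replicates and carry no p-value.

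Type I collagen, built from COL1A1 and COL1A2 chains, type III, built from COL3A1, and type V, which includes COL5A2 and takes part in starting fibrils, form the load-bearing fibrils of connective tissue and are made mainly by fibroblasts and related mesenchymal cells. COL4A1 and COL4A2 chains join into the sheet-like network of basement membranes, and their genes lie head to head so that a short promoter region serves both. Fibronectin links cells to matrix through integrins and is made by macrophages as well as by mesenchymal cells. SPARC binds collagen outside the cell and is active where matrix is remodelled.

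The promoters of these genes can be read in RefSeq sequence of the build GRCh38.p14, where 4 of the 8 genes matched the table used: COL4A1, COL4A2, FN1 and SPARC. COL1A1, COL1A2, COL3A1 and COL5A2 had no entry. The 250 bases before the start of 3 of them are shown because the type IV pair shares its promoter and because the FN1 window held the most M2 peaks. Capitals mark CCAAT, or its reverse complement, and TGACGTCA, the cAMP response element.
COL4A1: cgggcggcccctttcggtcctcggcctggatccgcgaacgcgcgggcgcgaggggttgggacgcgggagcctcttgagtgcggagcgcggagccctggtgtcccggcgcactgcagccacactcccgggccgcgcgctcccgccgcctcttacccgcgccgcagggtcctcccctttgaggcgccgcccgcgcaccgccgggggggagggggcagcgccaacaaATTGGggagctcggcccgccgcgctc
COL4A2: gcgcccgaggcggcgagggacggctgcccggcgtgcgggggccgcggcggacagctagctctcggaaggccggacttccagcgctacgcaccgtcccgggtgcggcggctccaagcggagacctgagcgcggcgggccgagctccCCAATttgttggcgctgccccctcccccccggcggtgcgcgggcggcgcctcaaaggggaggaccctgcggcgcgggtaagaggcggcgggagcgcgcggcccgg
FN1: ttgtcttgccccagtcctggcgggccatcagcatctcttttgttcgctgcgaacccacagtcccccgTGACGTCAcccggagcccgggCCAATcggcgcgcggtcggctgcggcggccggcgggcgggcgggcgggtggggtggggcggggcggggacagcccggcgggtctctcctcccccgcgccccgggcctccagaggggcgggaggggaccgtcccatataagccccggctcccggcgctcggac
The COL4A1 and COL4A2 stretches are reverse complements of each other over 126 bases, and the CCAAT match of the pair is a single site in that overlap. Of 35116 RefSeq promoters searched on both strands, 32.0% held CCAAT and 1.65% held TGACGTCA, with no overlap between these matches in the 3 genes. The core CCATNTT of YY1, the factor this study profiled, was in none of the 4 promoters and in 11.6% of all promoters. TATAAA was in none of the 4 and in 10.7% of all. The SPARC promoter held neither CCAAT nor TGACGTCA. GC content was 77.6% for COL4A1, 78.8% for COL4A2, 76.4% for FN1 and 59.2% for SPARC, beside a median of 58.0% over all promoters. These letters are a description of the sequence, and because the peak lists are in another build, no peak was placed on a promoter.

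No read counts come with the lists. The fragments stacked at the summit of a peak were therefore solved from its fold enrichment together with its p-value. Over the whole lists the median was 39 fragments in M2 and 40 in THP-1. The fewest at any called summit were 9 in M2 and 8 in THP-1, so a stretch without a peak is one where no call was made at this depth and not one shown to lack the mark. To set the libraries side by side, a summit's pileup was divided by the lowest background of its list, taken as the genome-wide level. By this measure the median summit stood at 17.0 times the genome-wide level in M2 and at 22.7 times in THP-1. The local background at summits was also higher in THP-1, with a median of 5.04 times the genome-wide level against 2.38 in M2. Fold enrichment and -log10 q are the authors' values for each peak against its own background and describe peaks within a list. Whether the M2 cells carried macrophage markers, or markers of fibroblasts, was not tested, because no hg19 gene positions were used here beyond the 6 windows.

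The name fibrillar collagen describes few of these peaks. The 3 windows of the fibrillar chains, 440 kb in all, held 9 M2 peaks and 1 THP-1 peak, which is 8.82% and 3.85% of the peaks in the windows. The type IV window and the FN1 window together held 85 M2 and 23 THP-1 peaks, 83.3% and 88.5%. Per Mb there were 75 M2 peaks in the COL1A1 window, 0 in that of COL1A2 and 10.7 in that of COL3A1 and COL5A2, which pool to 20.5. There were 95.1 in the type IV window and 79.4 in the FN1 and SPARC windows. The density over the whole M2 list was 19.2 per Mb, so COL1A1 stood above it and the other fibrillar windows below.

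M2 peaks outnumbered THP-1 peaks in 5 of the 6 windows, and the COL1A2 window held none of either. For comparison, the share of genome tiles with more M2 than THP-1 peaks was 33.8% at 80 kb, the length of the COL1A1, COL1A2 and SPARC windows. It was 55.8% at 280 kb, 62.5% at 410 kb and 69.2% at 600 kb, the lengths of the other 3. Of 80 kb tiles, 49.4% held no peak of either list. The COL3A1 and COL5A2 window alone had M2 peaks without any THP-1 peak, as had 12.6% of tiles of its length (16.0% of 80 kb tiles). In the windows 107.0 kb lay inside M2 peaks and 21.9 kb inside THP-1 peaks, a ratio of 4.89 for length beside 3.92 for number. Over the whole lists these ratios were 2.19 for covered sequence and 1.79 for numbers. Of the 102 M2 peaks, 82 overlapped no THP-1 peak, which is 80.4% (exact 95% binomial interval 71.4 to 87.6, for counting error only), beside 63.0% of all M2 peaks. In lists of equal length the share was 70.2% (55.1 to 82.7), beside 51.0%. At a -log10 q of 10 or more it was 82.35% (69.13 to 91.6), beside 74.15%, which lies inside that interval. Of the 26 THP-1 peaks, 23 had an M2 partner and 3 did not, which is 11.5% (2.45 to 30.2), beside 24.7% of all THP-1 peaks.

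**Figure D1:**
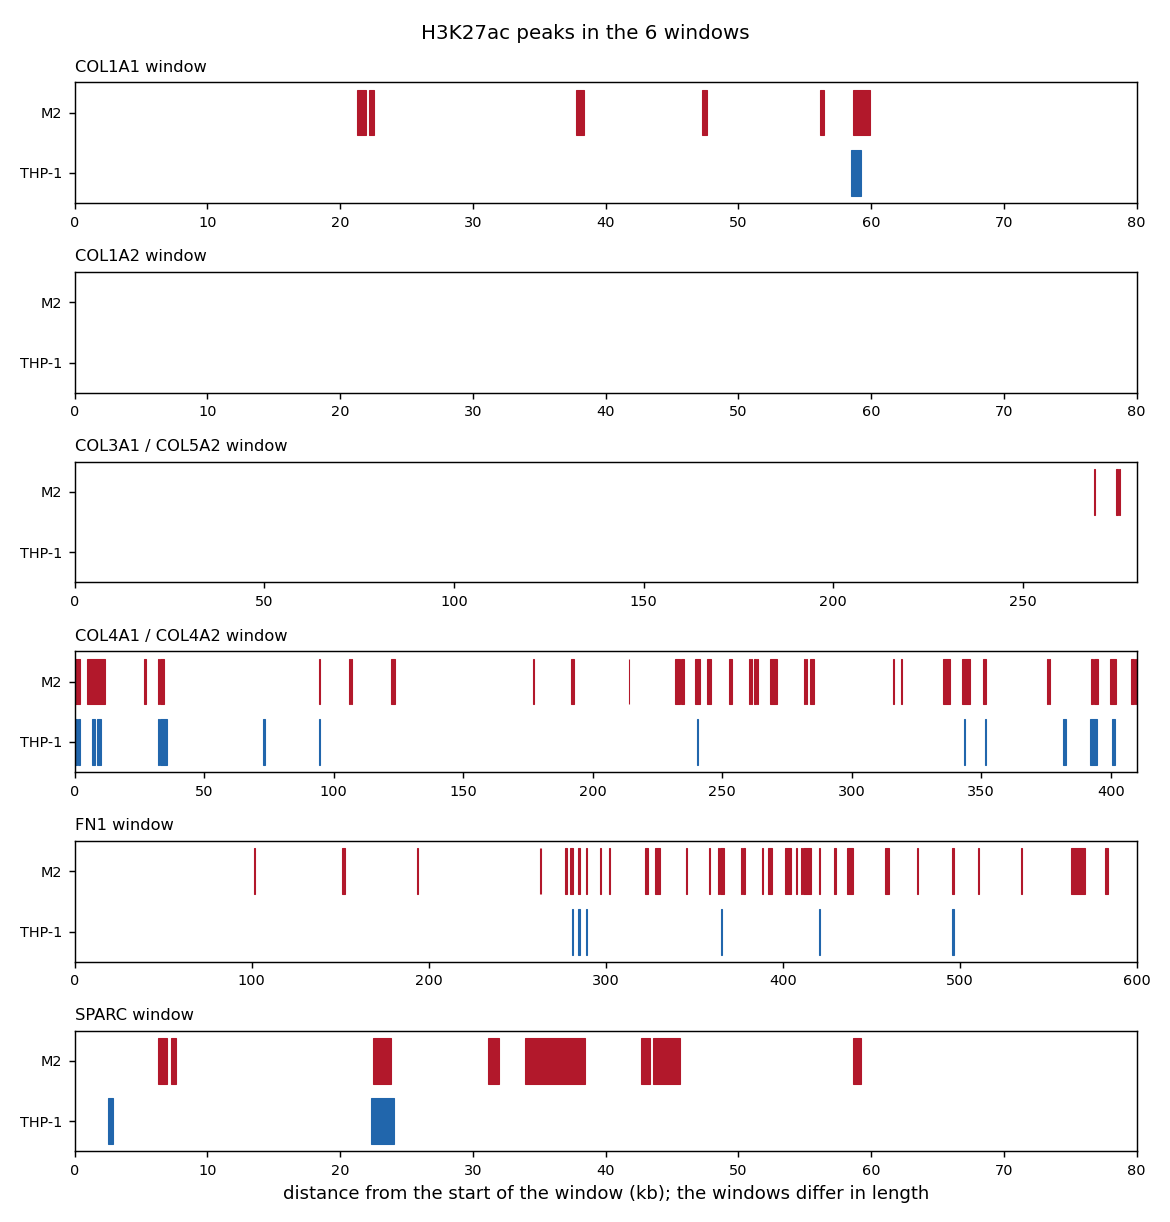
Position of every H3K27ac peak in the 6 windows, as distance from the start of the window in kb, with M2 peaks in the upper and THP-1 peaks in the lower row of each panel (1 library each). The COL1A2 panel is empty, the 3 COL3A1 and COL5A2 peaks lie at the far end, and the FN1 panel has 46 M2 and 8 THP-1 peaks.

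**Figure D2:**
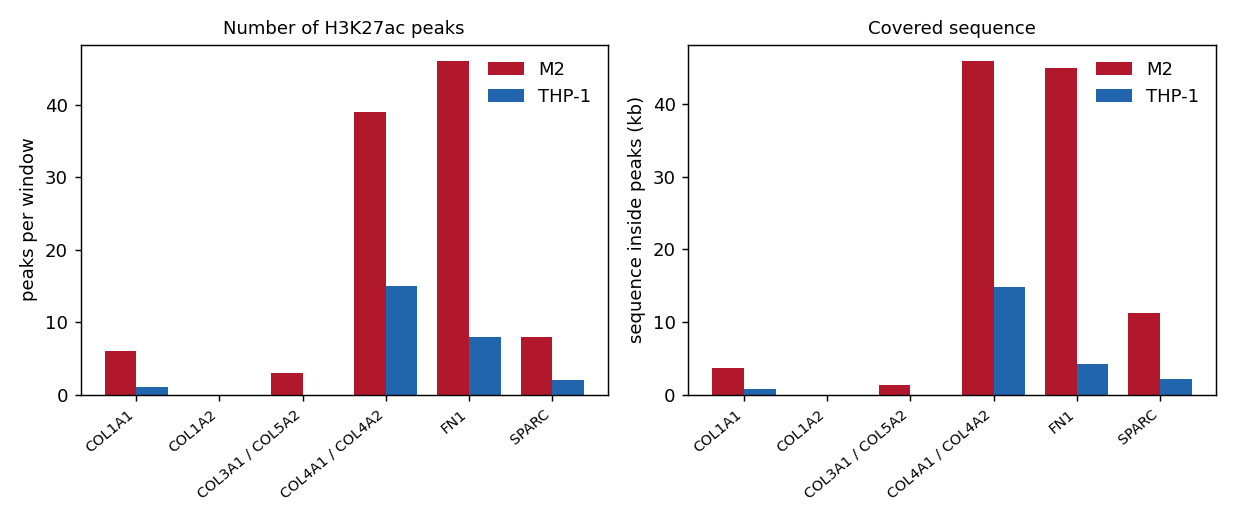
Number of peaks (left) and kb of sequence inside peaks (right) for each window, M2 in red and THP-1 in blue, 1 library each and no error bars. The type IV and FN1 windows have 39 and 46 M2 peaks over 45.9 and 45.0 kb.

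The window of COL1A1, the gene of the more abundant chain of type I collagen, had scattered peaks of modest strength. It spans 80 kb on chromosome 17 from 48.24 to 48.32 Mb. It held 6 M2 peaks over 3.62 kb and 1 THP-1 peak of 750 bp. The M2 peaks had 10 to 34 fragments over the summit (median 27.5), all below the list median of 39. The M2 peak of highest -log10 q lay at chr17:48262138-48262565 with 34 fragments, 7.40-fold over background, and 28867 bp from the nearest THP-1 peak, which lay below the window. The only stretch marked in both cell types was at the high end, where the widest M2 peak, chr17:48298630-48299900 with 31 fragments, met the THP-1 peak chr17:48298506-48299255 with 17. Summit levels there were 13.5 times genome-wide in M2 and 9.63 in THP-1, a ratio of 1.40 whose counting interval, 0.750 to 2.69, includes 1. In lists of equal length only 1 M2 peak of 428 bp was left in the window beside the 1 THP-1 peak of 750 bp, so the excess of M2 at COL1A1 rests on peaks of low rank. At least 6 M2 peaks were found in 8.03% of genome tiles of this length. Around the window, within 500 kb on either side, there were 44 M2 and 27 THP-1 peaks.

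COL1A2, whose product pairs with COL1A1 chains in type I collagen, had no H3K27ac peak in either list across the 80 kb of its window, chromosome 7 from 94.00 to 94.08 Mb. The surrounding 500 kb on each side was sparse too, with 9 M2 and 3 THP-1 peaks. Of 36809 genome tiles of 80 kb, 52.7% held no M2 peak and 65.4% no THP-1 peak, so an empty window of this length was common in both lists.

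COL3A1 and COL5A2, the genes of the type III chain and of a type V chain, are neighbours on chromosome 2, and their 280 kb window from 189.80 to 190.08 Mb held 3 M2 peaks and no THP-1 peak. All 3 lay at the high end of the window, after 268.7 kb without a call. The strongest and widest was chr2:190074523-190075054, 532 bp with 30 fragments and 6.45-fold over background. The others were chr2:190068738-190069115 with 17 fragments and chr2:190075303-190075669 with 23. None of the 3 reached the median -log10 q of the M2 list, and the nearest THP-1 peak was 136648 to 143202 bp away. The window was no denser than its surroundings, with 10.7 M2 peaks per Mb against 13.0 in the 500 kb on either side.

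The window of COL4A1 and COL4A2, the genes of the main basement membrane collagen, held the most THP-1 peaks of all windows. It also held the strongest M2 peaks, by fragments and by -log10 q. The window, 410 kb on chromosome 13 from 110.78 to 111.19 Mb, held 39 M2 peaks and 15 THP-1 peaks, which covered 45.9 and 14.9 kb, a ratio of 3.09. At least 39 M2 peaks were found in 0.458% of genome tiles of this length, and at least 15 THP-1 peaks in 6.83%. The M2 peaks had 13 to 206 fragments (median 35) and 4 were in the highest 10% of the M2 list by -log10 q. The THP-1 peaks had 10 to 87 fragments (median 38). Of the M2 peaks 28 met no THP-1 peak, and of the THP-1 peaks 2 met no M2 peak, chr13:110852873-110853554 with 19 fragments and chr13:111161685-111162591 with 38. By order in RefSeq, COL4A1 is followed by COL4A2 and then by RAB20, and no peak of the window was assigned to any of them.

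The lists differed along this window. In its first 100 kb M2 covered more sequence, 12.04 kb in 6 peaks. THP-1 had more peaks there, 8 over 8.92 kb, 1 of them reaching past the window's start. The higher THP-1 number rests on marginal calls, chr13:110788551-110790150 and chr13:110874308-110874691. Their -log10 q was 1.37 and 1.47, at percentiles 0.359 and 0.884 of the THP-1 list. The M2 peaks chr13:110780068-110781991 and chr13:110784638-110791541 also overlapped 2 THP-1 peaks each. The widest M2 peak of the window lay here, chr13:110784638-110791541, 6904 bp with 198 fragments, and 2 THP-1 peaks fell within it, chr13:110786778-110788001 with 71 and chr13:110788551-110790150 with 74 fragments. The latter was a marginal call, 1.49-fold over a local background of 28.0 times genome-wide. The strongest THP-1 peak of the window, chr13:110812941-110815511, had 87 fragments and a level of 49.3 times genome-wide. Its M2 counterpart chr13:110812970-110814432 had 78 fragments and 33.9 times, a ratio of 0.688 with a counting interval of 0.4999 to 0.944. Fold enrichment was instead higher in M2, 11.1 against 6.35, over local backgrounds of 2.58 and 7.29 times genome-wide. The measures thus differed in direction at this pair.

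In the middle of the window most calls were M2 calls. From 100 to 200 kb into the window there were 5 M2 peaks and no THP-1 peak, and in the next 100 kb 15 M2 peaks over 14.9 kb and 1 THP-1 peak over 0.478 kb. That THP-1 peak, chr13:111020147-111020624 with 18 fragments, lay 145.5 kb beyond the one before it. The M2 peaks from 111011587 to 111065497 numbered 14 over 53.9 kb, with 14.6 kb covered. Among them was the peak of highest fold enrichment in the window, chr13:111011587-111013751, 17.8-fold with 61 fragments and 6395 bp from a THP-1 peak. A run of 14 M2-only peaks spanned 93.9 kb from 111024233 to 111118108.

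Towards the high end both lists had peaks again, of unlike strength at some sites and of closer level at another. M2 had peaks of 175 and 192 fragments at chr13:111115311-111118108 and chr13:111122528-111125636. The first had no THP-1 counterpart, and the second overlapped a THP-1 peak of 10 fragments, chr13:111123172-111123651. The levels were 83.4 and 5.67 times genome-wide, a ratio of 14.7 (7.84 to 31.2). This ratio was the highest among the paired peaks of the windows, although the summits were 791 bp apart. The M2 peak of highest -log10 q, chr13:111179810-111182151, had 206 fragments and overlapped 2 THP-1 peaks of 37 and 30 fragments. Levels were closer at the THP-1 peak chr13:111172087-111174643, which had 76 fragments and stood at 43.1 times genome-wide. It overlapped 2 M2 peaks of 114 and 117 fragments, at 49.5 and 50.8 times genome-wide. The THP-1-only peak chr13:111161685-111162591 with 38 fragments also lay in this stretch.

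The window of FN1, the fibronectin gene, had many M2 peaks and few THP-1 peaks, and none was assigned to a gene. It was the longest of the 6, 600 kb on chromosome 2 from 216.20 to 216.80 Mb. It held 46 M2 peaks and 8 THP-1 peaks. The M2 peaks covered 45.0 kb and the THP-1 peaks 4.20 kb, so that M2 had 10.7 times the covered sequence, more than in the other 3 windows with peaks of both lists. At least 46 M2 peaks were found in 1.14% of genome tiles of this length, and at least 8 THP-1 peaks in 31.7%. By number of M2 peaks it came before the type IV window as deposited and after merging peaks within 1000 bp, but behind it at a -log10 q of 10 or more (18 against 25), in lists of equal length (18 against 23) and with windows widened by 50 kb (47 against 48). The median tile of 600 kb held 8 M2 and 4 THP-1 peaks. Within 500 kb on either side the M2 density was 29.0 peaks per Mb, against 76.7 inside.

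The first 100 kb of the FN1 window had no peak of either list. The M2 peak nearest to this gap was chr2:216301138-216301894, 757 bp with 27 fragments and 2.97-fold over background, and the gap before it was 101.1 kb. The counts per 100 kb then were 3, 10, 14, 14 and 5 for M2 and 0, 4, 1, 3 and 0 for THP-1. By order in RefSeq the next protein-coding gene after FN1 is MREG, and the one before is ATIC. Which of these genes the peaks act on cannot be read from the lists.

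All 8 THP-1 calls of the FN1 window had M2 partners, and they met 7 of the 46 M2 peaks. The THP-1 peaks had 14 to 29 fragments (median 24.5) and the M2 peaks 11 to 112 (median 24.5), both medians lying below those of the whole lists. Around chr2:216484241-216489423, 3 paired peaks had lower summit levels in M2, though not lower fold enrichment. They had 17, 25 and 16 fragments against 29, 29 and 26 in THP-1. The level ratios were 0.450 (0.232 to 0.846), 0.661 (0.371 to 1.17) and 0.472 (0.237 to 0.914). The interval of the middle one includes 1. The THP-1 local background at these 3 peaks was 4.23 to 5.76 times genome-wide, against 1.00 to 1.59 in M2. At the neighbouring pair chr2:216480558-216481301 M2 was higher, with 53 against 23 fragments and a ratio of 1.77 (1.07 to 3.02). It was higher also at chr2:216564428-216566768, with 66 against 14 fragments and a ratio of 3.62 (2.01 to 6.97).

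The strongest M2 peaks of the FN1 window had no THP-1 counterpart. The widest, and the one of highest -log10 q, was chr2:216763071-216770075, 7005 bp with 112 fragments and 16.1-fold over background, 66228 bp from the nearest THP-1 peak. By width it stood above 99.8% of the M2 list. The peak of highest fold enrichment was chr2:216657759-216660098, 19.3-fold with 71 fragments, 35703 bp from a THP-1 peak. From 216558518 to 216639517 there were 20 M2 peaks with 18.4 kb covered, and 2 THP-1 peaks covered 1.04 kb of the same stretch. A run of 11 M2-only peaks from 216576642 to 216616015 ended in a peak of 4272 bp with 84 fragments.

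The SPARC window had dense M2 peaks, led by a single strong one. It spans 80 kb on chromosome 5 from 151.02 to 151.10 Mb. It held 8 M2 peaks over 11.2 kb, 14.0% of its length, and 2 THP-1 peaks over 2.08 kb, 2.60% (2.08% and 0.9499% for the whole M2 and THP-1 lists). At least 8 M2 peaks were found in 3.70% of tiles of this length. Its density, 100 per Mb, was above the 95.1 of the type IV window as deposited, and below it at a -log10 q of 10 or more, with 50 against 61.0. The M2 peaks had 11 to 118 fragments (median 22.5). A single M2 peak, chr5:151053911-151058470, was the widest, the strongest and the one of highest fold enrichment, with 4560 bp, 118 fragments and 17.9-fold, and 9892 bp separated it from THP-1 signal called as a peak. The next by -log10 q without a THP-1 counterpart was chr5:151063533-151065606 with 59 fragments.

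The pair of peaks at SPARC shows how fold enrichment and fragments can part. The M2 peak chr5:151042494-151043860 was 14.5-fold over its background with 53 fragments. The THP-1 peak chr5:151042288-151044018 was 3.42-fold over its background with 79 fragments, and the summits were 4 bp apart. Relative to the genome-wide level the M2 summit stood at 23.0 and the THP-1 summit at 44.8, a ratio of 0.515 (0.356 to 0.738). M2 was thus lower by summit level and higher by fold, and the direction of the mark at this site is not settled. The local background was 1.11 times genome-wide in M2 and 12.7 times in THP-1. The other THP-1 peak, chr5:151022536-151022880 with 11 fragments, lay 3393 bp from the nearest M2 peak, chr5:151026274-151026925 with 25.

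**Figure D3:**
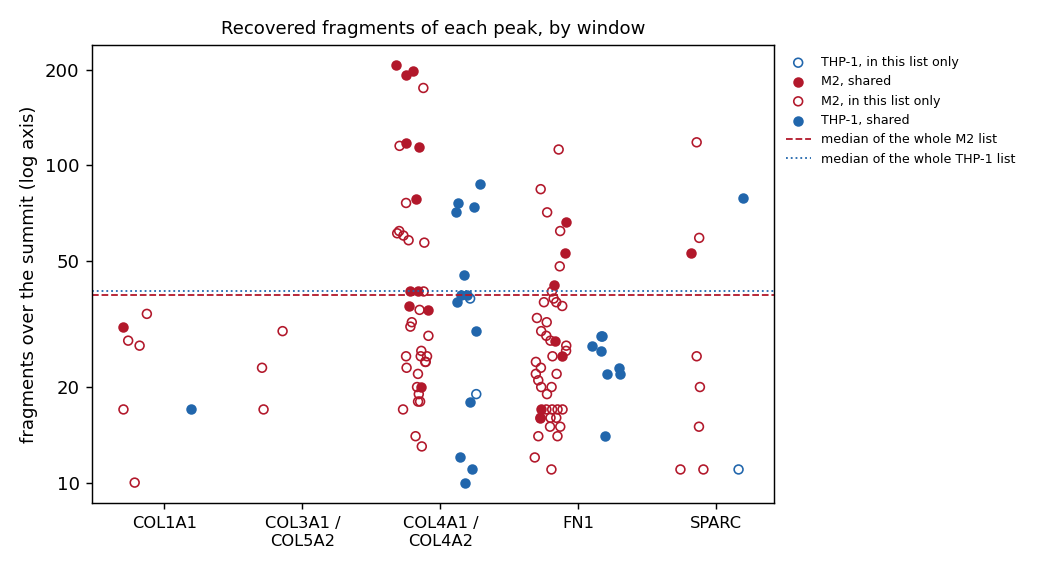
Recovered fragments over the summit of each peak (log axis) by window, M2 in red and THP-1 in blue, filled where the peak overlaps the other list and open where it does not, with lines at the whole-list medians of 39 and 40. Each point is 1 peak of 1 library and sideways scatter has no meaning. M2 points reach 206 in the type IV window, while COL1A1 and COL3A1 and COL5A2 points stay at or below 34.

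Peaks of these windows had lower median fragments and -log10 q than the lists they came from, but not a lower median fold enrichment. The median fold was 5.446 in M2, beside 5.419 in the whole list, and 3.95 in THP-1, beside 3.668. The median M2 peak had 26.5 fragments (interquartile range 18.25 to 40), beside 39 in the whole list, and the median THP-1 peak 28 (18.25 to 39), beside 40. The median width was 582.5 bp in M2, beside 743 bp, and 666 bp in THP-1, beside 661 bp. Of the 102 M2 peaks, 7 were in the highest 10% of the list by -log10 q, and 38 were above its median. The M2-only share was also read by peak strength, a split chosen after seeing the data. Above the list median it was 26 of 38, or 68.4% (51.4 to 82.5), beside 48.8% of all such M2 peaks. At or below it the share was 56 of 64, or 87.5% (76.9 to 94.5), beside 77.2%.

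M2-only peaks lay a median of 18.1 kb from the nearest THP-1 peak, beside 20.7 kb for all M2-only peaks. Of the 82, 57 were more than 10 kb away, beside 23159 of the 35520 in the whole list. Their summits had 10 to 175 fragments (median 25), which is 4.35 to 76.04 times the genome-wide level (median 10.9). The lowest called THP-1 summit stood at 4.53 times and the median one at 22.7. Of the 82 peaks, 14 reached that THP-1 median, 17.1%, beside 9569 of the 35380 M2-only peaks of the whole list with recovered fragments. By window these were 8 of 28 at COL4A1 and COL4A2, 4 of 39 at FN1 and 2 of 7 at SPARC, with none at COL1A1 or at COL3A1 and COL5A2.

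Where both lists had a peak, the measures differed: the authors' fold enrichment was higher in M2 in all 14 pairs, and the summit level in 7 of the 14. Among paired peaks of the whole lists the summit level was higher in M2 in 45.15%. Each fold is taken over the local background of its own library, and the median fold was also higher over the whole M2 list, 5.42 against 3.67 in THP-1. In these 14 cases 1 peak of each list overlapped, with no further partner on either side. The median ratio of levels, M2 over THP-1, was 1.04 (interquartile range 0.668 to 1.70), beside 0.936 (0.646 to 1.37) over 15886 such pairs of the whole lists. The counting interval lay above 1 in 4 pairs, below 1 in 4 and included 1 in 6. All 4 pairs with the interval above 1 were at COL4A1 and COL4A2 or FN1, and the 4 below were at COL4A1 and COL4A2, FN1 and SPARC. Summits were within 200 bp of each other in 12 pairs. The THP-1 local background was the higher in 10 of the 14, beside 13289 of the 15886 pairs of the whole lists. Its part in which sites were called was not tested.

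**Figure D4:**
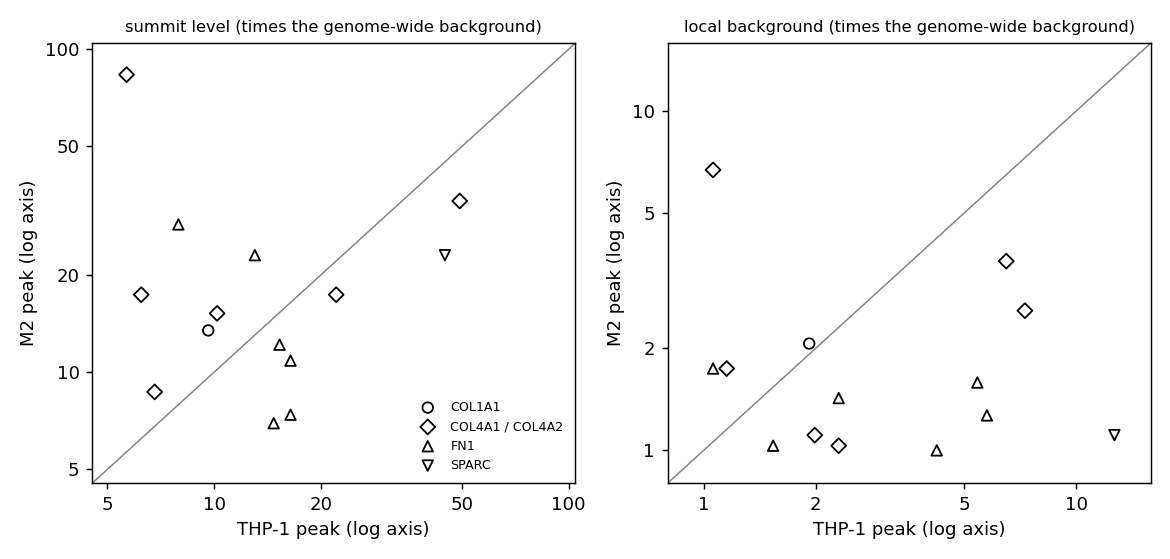
Summit level (left) and local background (right) of the 14 paired peaks, each as a multiple of the genome-wide background, THP-1 on the horizontal and M2 on the vertical log axis, with a line of equality and a symbol for each window. Summit levels lie on both sides of the line, 7 above, while 10 of 14 backgrounds lie below it.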

How the data were processed

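The 2 deposited peak lists of H3K27ac were used, read in narrowPeak column order. Per the submitters' processing notes, Bowtie2, MACS2 2.1.0 and hg19 were used. Settings, and any use of input as control, are not given in the sources used. Fold enrichment is a ratio and -log10 p and -log10 q are the authors' deposited values for each peak. The score column deposited by the authors was not used. Chromosome Y was left out. Peak numbers begin at 2468 (M2) and 1253 (THP-1) at the start of chromosome 1 and then run without a gap, so lower-numbered peaks were not analysed here and whole-list values cover the listed chromosomes only.

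The 6 windows are those described in the report. Overlap needed at least 1 bp (checked with bedtools 2.31.1), and densities use the 2943 Mb between the first and last peaks of the chromosomes. Fragments and background were solved from fold and p (tolerance 0.002 in -log10 p), with M2 pileup scaled by 0.842, the largest scale below 1 that fits. The solution was unique for 99.7% of the M2 list, for 100% of the THP-1 list and for all peaks in the windows. Total read depth of the libraries is unknown here. The genome-wide level solved was 1.937 in M2, on the scaled pileup, and 1.765 in THP-1, at a scale of 1. Whether the M2 library was the deeper, and its part in the number of calls, was not tested. The recovered fragments, an inference, stand for the precision of each summit. Intervals (exact binomial, scipy 1.17.1) cover counting error only. The steps were tested on simulated data.

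Genes and tests were chosen with earlier results of these data known. The named peaks are, per window, the M2 peaks of highest -log10 q, fold and width, and the THP-1 peaks where there were 5 or fewer with their nearest M2 peaks, with further peaks named after their values were seen. Other matrix genes and cell type markers, listed for use with an hg19 annotation, were not analysed here.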

Additional observations from a re-analysis of the deposited data

How the results depend on the processing

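Lengths and numbers were taken as moved beyond 1.5 times, shares beyond the interval. A stricter threshold, -log10 q of 10 or more, left 51 M2 and 9 THP-1 peaks, the latter over 11.6 kb, and in lists of equal length 47 M2 peaks with an M2-only share of 70.2%. Without the COL4A1 and COL4A2 window M2 had 63 peaks (61.1 kb) and THP-1 had 11 (7.02 kb), and without the FN1 window M2 had 56 (62.0 kb). The other totals of the 6 windows were within these limits. Tiles with M2 peaks and no THP-1 peak were 16.0% of 80 kb and 14.3% of 200 kb tiles. M2 peaks outnumbered THP-1 peaks in 5 of 6 windows at the stricter threshold, after merging peaks within 1000 bp and with windows widened by 50 kb, and in 4 of 6 in lists of equal length, where COL1A1 had 1 peak of each. Of 96 values for single windows, 69 stayed within the limit and 27 did not. No paired analysis was possible because each cell type had 1 H3K27ac library and no result comes from a test. Depth limits what an uncalled stretch can show.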
